A study of Mus musculus with 12 samples.

Results

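Cochleae of mice that drank coffee or green tea extract (GTE), taken as 1 side, were compared with cochleae of mice on plain water. The drink side held the 8 libraries titled coffee (4) or GTE (4), and the control side held the 4 libraries titled control, so that all 12 libraries of the series entered. All mice were wild-type C57BL/6J, an inbred strain known for progressive hearing loss with age, and all were 12 months old when the cochlea was taken. Coffee mice received black coffee at 0.1% in their water and GTE mice received the extract at 0.006%, both from 3 months of age, while control mice had no additive. Genes were kept where at least 4 of the 12 libraries reached 1 FPKM (sequenced fragments for each kilobase of a gene's exons, relative to library depth), which left 15854 of 34538 genes. The comparison asks which transcripts differ between treated and untreated cochleae whichever drink was given. The labels do not state that the replicates of a group were separate animals, so the spread behind every p-value may be technical.

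The cochlea is the spiral hearing organ of the inner ear. Its hair cells turn sound into electrical signals, its stria vascularis secretes the potassium-rich endolymph that drives them, and the fibrocytes of the spiral ligament return potassium to the stria. The organ lies in bone that carries marrow, and its matrix is rich in collagen, which is folded in the endoplasmic reticulum by dedicated chaperones and enzymes before secretion. Caffeine, the best known constituent of coffee, blocks adenosine receptors, and green tea extract is rich in catechins.

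The labelled tissue was checked against 10 cochlear markers, all of which were detected in every library. Coch, the main secreted protein of spiral ligament fibrocytes, was between 1079.8 and 2335 FPKM. Ocm, the outer hair cell calcium buffer oncomodulin, was between 12.3 and 49.8 FPKM, and Tecta, a tectorial membrane protein, was lowest at 0.249 to 2.49 FPKM. Depth was even, with recovered FPKM denominators of 20526024 to 24835934 fragments, at which 3 fragments on a gene of 2000 bases equal 0.0604 to 0.0731 FPKM. Within a group, pairs of libraries had Pearson correlations (log2 scale, all tested genes) of 0.938 to 0.970 for coffee, 0.920 to 0.973 for GTE and 0.953 to 0.975 for control.

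Transcripts of marrow cells set some libraries apart before any comparison was made. The mean log2(FPKM + 1) of 18 genes of marrow myeloid cells was 8.97, 8.15, 8.40 and 8.58 in coffee libraries 1 to 4, 9.09, 8.01, 7.67 and 7.51 in GTE libraries 1 to 4 and 7.97, 7.30, 7.78 and 7.28 in control libraries 1 to 4. Coffee 1, coffee 4 and GTE 1, called marrow-rich here, had the highest values of the 12. In 6 of the 8 drink libraries, among them every coffee library, the mean was above all controls. Medians of gene lists are therefore given also with the mean of this list as a covariate and without the 3 libraries. Marrow content and drink go together in these libraries, so neither setting can tell their parts in a difference apart. Of the 99 genes chosen for naming, the covariate lowered the log2 difference by more than 1.5 times or turned its sign in 53, and leaving out the 3 libraries did so in 36. In bulk tissue fewer cells of a type and less RNA per cell cannot be told apart.

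In the pooled comparison, 1 gene passed the threshold of an adjusted p of 0.05 (limma, Benjamini-Hochberg over all 15854 genes). It was Serpinh1, which encodes HSP47, the collagen-specific chaperone of the endoplasmic reticulum, and it fell with the drinks (0.00631% of genes called lower and 0% called higher). At an unadjusted p under 0.05, 1359 genes were higher (8.57%) and 1296 lower (8.17%) in the drink libraries, 2655 in all (16.7%). Of these, 51.2% were higher, against 37.4% after quantile normalization, 39.2% without control 4 and 68.7% with the marrow covariate. Weighting the libraries by their quality in limma gave 11 genes called higher and 39 lower, all 50 of them among the 2655. The log2 difference was above 0 in 51.8% of tested genes and below 0 in 48.2%, with a median of 0.0078. All 8 drink libraries lay above all 4 controls for 136 genes (0.858%) and below them for 190 genes (1.2%). The plot of all tested genes shows Serpinh1 apart from the rest on the p axis, followed by Tspan11.

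**Figure D1:**
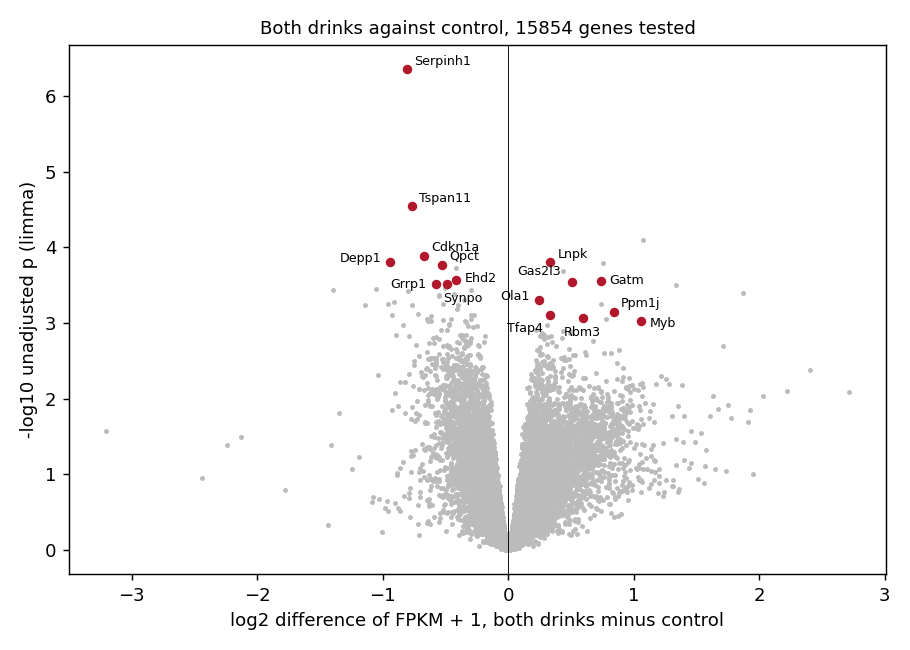
Log2 difference of FPKM + 1 between both drinks and control (x axis) against -log10 of the unadjusted limma p (y axis) for the 15854 tested genes, 1 grey point a gene; red points mark the 8 named genes with the smallest p in each direction. Serpinh1 stands highest, at a log2 difference of -0.81.

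Serpinh1 (ENSMUSG00000070436, chr7:99345376-99353239 of mm10, minus strand) was at 89.2, 93.1, 100.4 and 91.3 FPKM in coffee libraries 1 to 4, 80.98, 91.1, 104 and 80.98 FPKM in GTE libraries 1 to 4 and 172, 157, 164 and 147 FPKM in control libraries 1 to 4. The 8 drink libraries did not overlap the controls, and the highest of them, GTE 3, was below the lowest control. The drink mean was 91.3 ± 8.06 FPKM (SD, n = 8) and the control mean 160.1 ± 10.7 FPKM (SD, n = 4). The log2 difference was -0.81 ± 0.078 (SE), with an adjusted p of 0.00694 by limma. An exact two-sided permutation test over the 495 choices of 4 control libraries gave p = 0.00404, the smallest it allows. That p is not adjusted for the number of genes tested. The 326 genes without overlap between the sides all reach it, and it adds no separate support for Serpinh1. Set against the same 4 controls, coffee alone gave a log2 difference of -0.77 and GTE alone -0.84, and GTE minus coffee had an unadjusted limma p of 0.429. Over 26 alternative settings the difference lay between -0.84 and -0.76, and its adjusted p passed in 21 of them. It was 0.0671, 0.0538 and 0.0685 without control 1, control 2 and control 3, 0.0652 with the myeloid marrow mean as a covariate (log2 -0.77) and 0.206 without coffee 1, coffee 4 and GTE 1 (log2 -0.76).

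The stress responses of the cytosol and the endoplasmic reticulum have known promoter elements that can be looked for in a sequence. The promoters of Serpinh1 and of 3 chaperone genes described further on are therefore printed here. Each is the 250 bases before the RefSeq start on GRCm38.p6, read along the gene's strand. Serpinh1 is at chr7:99353240-99353489, Hspa5 at chr2:34771840-34772089, Creld2 at chr15:88819396-88819645 and Dnaja1, at 1 of its 3 listed starts, at chr4:40722218-40722467. Capitals mark the ER stress element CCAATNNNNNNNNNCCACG in Hspa5 and, read on the opposite strand, in Creld2, and the heat shock element GAANNTTC in Dnaja1.
Serpinh1: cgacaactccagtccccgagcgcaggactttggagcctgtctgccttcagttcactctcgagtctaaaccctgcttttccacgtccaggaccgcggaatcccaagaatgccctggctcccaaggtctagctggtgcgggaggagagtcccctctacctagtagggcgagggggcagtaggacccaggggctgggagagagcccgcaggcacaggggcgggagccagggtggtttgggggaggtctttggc
Hspa5: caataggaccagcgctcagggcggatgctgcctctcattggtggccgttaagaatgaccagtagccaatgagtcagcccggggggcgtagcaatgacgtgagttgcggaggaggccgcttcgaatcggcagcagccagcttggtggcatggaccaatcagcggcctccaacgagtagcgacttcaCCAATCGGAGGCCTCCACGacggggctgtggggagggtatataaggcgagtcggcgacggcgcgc
Creld2: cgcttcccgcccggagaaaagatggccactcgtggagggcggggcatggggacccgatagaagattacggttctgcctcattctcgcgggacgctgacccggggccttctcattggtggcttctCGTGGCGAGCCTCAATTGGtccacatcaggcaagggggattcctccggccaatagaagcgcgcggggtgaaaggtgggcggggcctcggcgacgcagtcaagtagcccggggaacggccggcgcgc
Dnaja1: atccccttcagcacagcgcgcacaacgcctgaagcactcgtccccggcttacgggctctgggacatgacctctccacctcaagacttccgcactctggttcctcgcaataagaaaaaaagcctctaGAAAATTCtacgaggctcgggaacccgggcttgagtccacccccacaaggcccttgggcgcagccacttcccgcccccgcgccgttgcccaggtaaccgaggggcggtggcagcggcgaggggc

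Both strands of these windows were searched for 4 motifs, the ER stress element, the heat shock element, the glucocorticoid element ACANNNTGT and the aryl hydrocarbon element GCGTG. The Serpinh1 window held none of these letters. The ER stress element was found for 7 of the 18 endoplasmic reticulum chaperone genes with a window (38.9%), against 35 of 27025 genes in all (0.13%). Among heat shock genes, 7 of 16 held the heat shock element (43.8%), against 7.73% of all genes. The glucocorticoid element stood in 3 of 14 glucocorticoid response genes (21.4%, against 6.76% of all genes), and the aryl hydrocarbon element in 5 of 7 genes of the aryl hydrocarbon receptor list (71.4%, against 30.9% of all genes). That short element was also found for 13 of the 18 endoplasmic reticulum chaperone genes (72.2%). A match describes the letters in the window and is not a binding site measured here. The absence of a match in 250 bases does not show that a gene lacks such an element elsewhere or in other letters.

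After Serpinh1, the named genes with the smallest p among those lower with the drinks were Tspan11, Cdkn1a, Depp1, Qpct, Ehd2, Synpo and Grrp1, none of which passed the adjusted threshold (limma adjusted p 0.223 for Tspan11 and 0.261 for the others). Tspan11 (chr6:127887589-127953977), a membrane protein of the tetraspanin family, was at 5.395, 6.13, 4.42 and 5.17 FPKM in coffee, 3.69, 5.46, 5.48 and 6.51 FPKM in GTE and 10.04, 9.403, 9.56 and 9.26 FPKM in control libraries. All 8 drink libraries were below all controls, with a log2 difference of -0.76 ± 0.11 (SE), and the adjusted p was 0.0273 without GTE 1. Cdkn1a (chr17:29090976-29100727), the cell cycle inhibitor p21, was at 28.6, 35.6, 29.8 and 33.4 FPKM in coffee, 25.7, 33.8, 31.5 and 30.9 FPKM in GTE and 39.01, 47.95, 53.3 and 62.5 FPKM in control. No drink library reached the lowest control, control 1 (log2 difference -0.67 ± 0.12, SE). Depp1 (chr6:116650609-116652794), induced by FOXO transcription factors and linked to autophagy, was at 2.24, 4.404, 4.19 and 3.54 FPKM in coffee, 1.295, 2.003, 2.59 and 1.94 FPKM in GTE and 7.72, 6.31, 4.39 and 5.86 FPKM in control. Coffee 2 overlapped the lowest control by a small margin, and the log2 difference was -0.63 for coffee and -1.25 for GTE against the shared controls. Qpct (chr17:79051906-79090378), the glutaminyl cyclase that forms pyroglutamate ends of peptides, was at 6.81, 6.89, 9.41 and 7.85 FPKM in coffee, 8.05, 10.3, 10.2 and 11.2 FPKM in GTE and 12.8, 13.4, 13.7 and 12.1 FPKM in control. Ehd2 (chr7:15946958-15967567), an ATPase of caveolar membranes, was at 8.78, 9.33, 10.1 and 9.67 FPKM in coffee, 7.04, 7.82, 9.68 and 9.06 FPKM in GTE and 11.9, 13.5, 11.7 and 11.8 FPKM in control. In both genes every drink library lay below every control. Synpo (chr18:60593973-60660142), the actin-binding protein synaptopodin, was at 4.33, 4.11, 4.46 and 4.02 FPKM in coffee, 4.18, 4.35, 4.83 and 4.07 FPKM in GTE and 7.92, 5.499, 7.18 and 5.32 FPKM in control. Its drink values were tight and separate, while the controls formed a higher pair (1 and 3) and a lower pair (2 and 4). Grrp1 (chr4:134251110-134254106) was at 6.98, 8.96, 7.17 and 6.6999 FPKM in coffee, 6.56, 6.27, 5.59 and 6.61 FPKM in GTE and 13.6, 8.22, 10.5 and 10.8 FPKM in control, with coffee 2 above the lowest control.

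**Figure D2:**
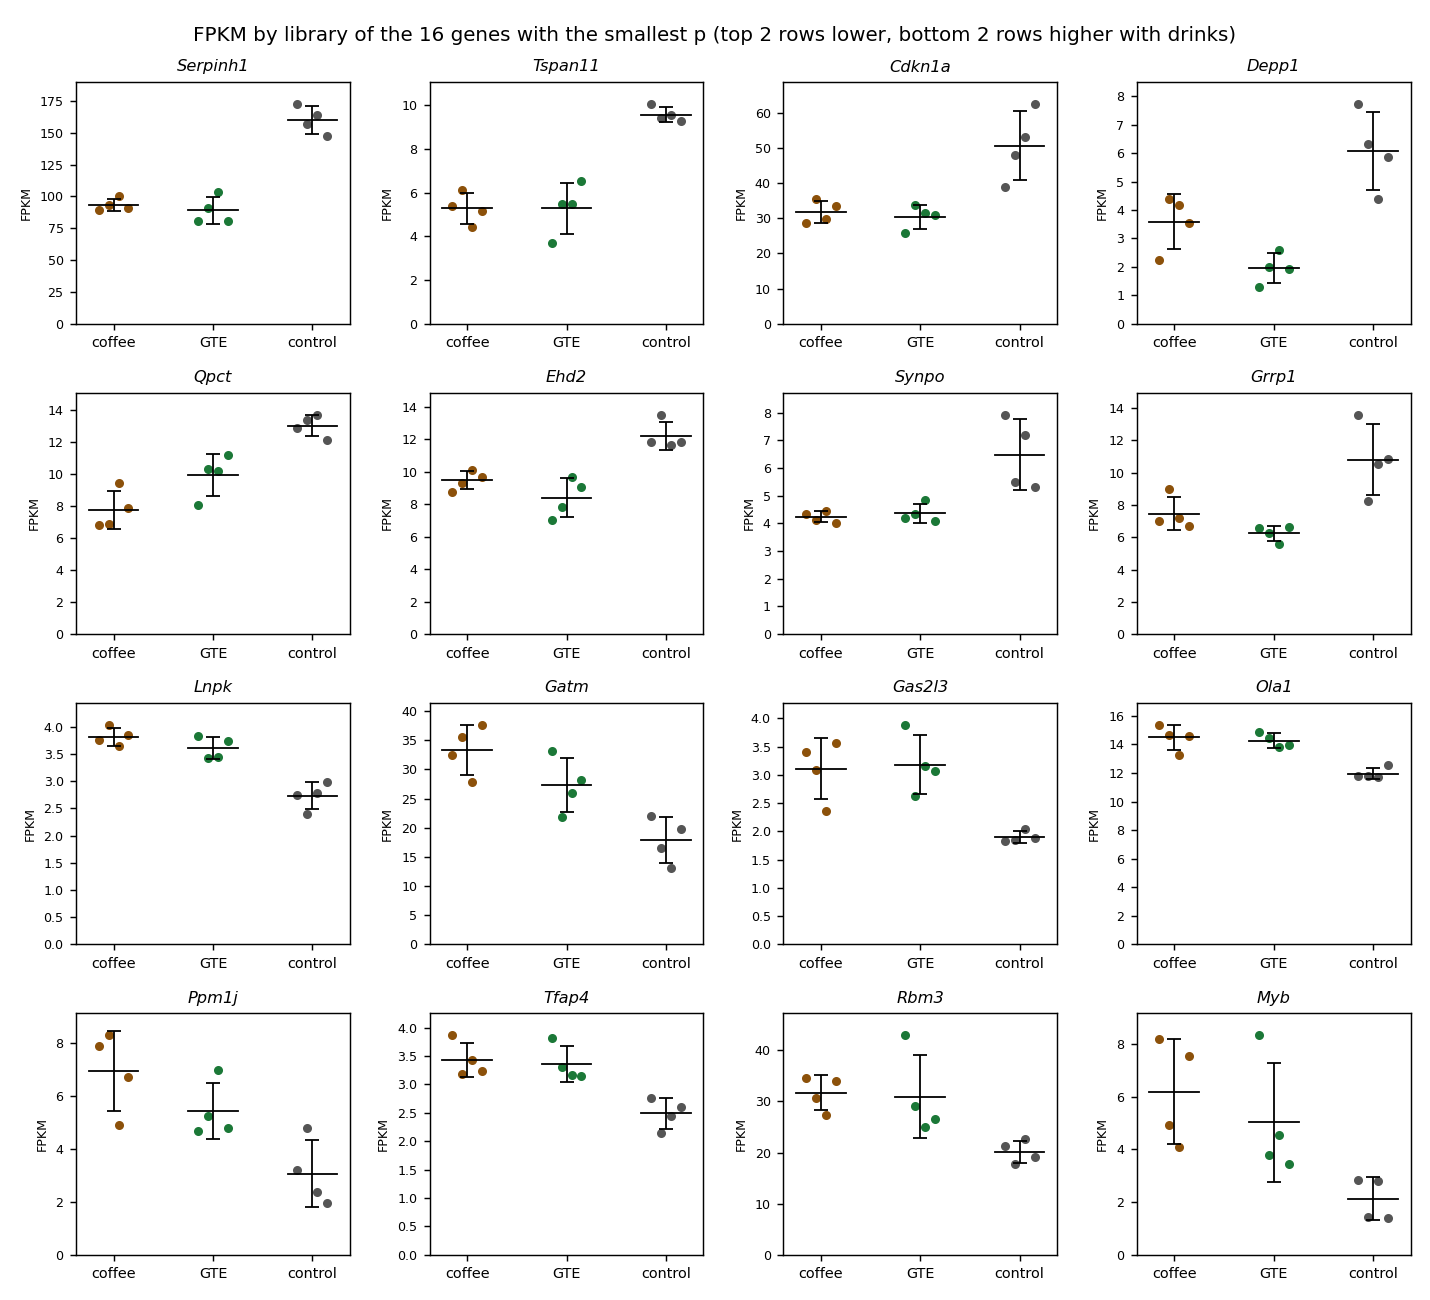
FPKM by library (y axes, from 0) of the 16 named genes with the smallest p, 8 lower and 8 higher with the drinks, in coffee, GTE and control (x axes); points are libraries, lines the group mean and bars the SD (n = 4). Serpinh1 sits between 80.98 and 104 FPKM in the drink libraries and between 147 and 172 FPKM in the controls.

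The panels of FPKM by library show the separation of Serpinh1 and Tspan11 from their controls and the wider control spread of Cdkn1a, Synpo and Grrp1. Among genes higher with the drinks, those with the smallest p were Lnpk, Gatm, Gas2l3, Ola1, Ppm1j, Tfap4, Rbm3 and Myb, each with a limma adjusted p of 0.261, which 459 genes shared. Lnpk (chr2:74520291-74579435), which stabilizes the junctions of endoplasmic reticulum tubules, was at 3.75, 4.03, 3.64 and 3.84 FPKM in coffee, 3.83, 3.43, 3.44 and 3.74 FPKM in GTE and 2.75, 2.395, 2.79 and 2.99 FPKM in control. Every drink library was above every control, by a log2 difference of 0.34 ± 0.061 (SE). Gatm (chr2:122594467-122611303), the first enzyme of creatine synthesis, was at 32.4, 35.6, 27.8 and 37.6 FPKM in coffee, 33.2, 21.9, 26.02 and 28.2 FPKM in GTE and 22.1, 16.6, 13.1 and 19.7 FPKM in control. GTE 2 was just below control 1 and the other 7 drink libraries were above all controls (log2 difference 0.74 ± 0.14, SE). The Gatm difference was 0.64 with the marrow covariate and 0.65 without coffee 1, coffee 4 and GTE 1. Gas2l3 (chr10:89408823-89443967), a linker of actin and microtubules, was at 3.41, 3.09, 2.36 and 3.57 FPKM in coffee, 3.88, 2.63, 3.15 and 3.06 FPKM in GTE and 1.82, 1.84, 2.05 and 1.88 FPKM in control. Ola1 (chr2:73092801-73218924), an ATPase of the Obg family, was at 15.4, 14.7, 13.3 and 14.6 FPKM in coffee, 14.9, 14.4, 13.8 and 13.9 FPKM in GTE and 11.8, 11.8, 11.7 and 12.6 FPKM in control. The groups did not overlap in either gene, and control 4 stood above the other 3 closely grouped controls for Ola1. Ppm1j (chr3:104781056-104786018), a serine/threonine phosphatase, was at 7.897, 8.301, 4.92 and 6.74 FPKM in coffee, 4.68, 5.24, 6.98 and 4.81 FPKM in GTE and 3.199, 4.78, 2.38 and 1.94 FPKM in control, where control 2 exceeded GTE 1. Tfap4 (chr16:4544661-4559854), a helix-loop-helix transcription factor, was at 3.86, 3.19, 3.43 and 3.24 FPKM in coffee, 3.82, 3.31, 3.17 and 3.14 FPKM in GTE and 2.77, 2.14, 2.44 and 2.603 FPKM in control. Rbm3 (chrX:8138975-8145880), a cold-induced RNA-binding protein, was at 34.6, 30.7, 27.3 and 34.1 FPKM in coffee, 42.9, 29.02, 25.1 and 26.6 FPKM in GTE and 21.3, 17.8, 22.6 and 19.03 FPKM in control. Both were separate between drinks and control, and GTE 1 was highest of all for Rbm3, whose log2 difference of 0.59 was 0.29 with the marrow covariate and 0.45 without coffee 1, coffee 4 and GTE 1. Myb (chr10:21124935-21160984), a transcription factor of blood progenitors, was at 8.19, 4.93, 4.09 and 7.54 FPKM in coffee, 8.32, 3.77, 4.56 and 3.43 FPKM in GTE and 2.85, 1.45, 2.81 and 1.38 FPKM in control (6.26% of its exon bases overlap Gm26577). The 3 marrow-rich libraries had its highest values, and its log2 difference of 1.06 was 0.52 with the marrow covariate and 0.77 without coffee 1, coffee 4 and GTE 1.

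The drinks were also tested against each other, since a difference between them bears on a pooled value. GTE minus coffee gave 0 genes past the adjusted threshold in limma (0%), but 365 with the libraries weighted by quality and 1 without coffee 2. In the unweighted fit of all 12 libraries, 1071 genes were at an unadjusted p under 0.05 (6.76%). Of the 2655 genes at that level in the pooled comparison, 281 were also at an unadjusted p under 0.05 for GTE minus coffee. The smallest limma adjusted p for GTE minus coffee among the 99 genes chosen for naming was 0.718. A p that misses the threshold does not show that the drinks act alike. Coffee and GTE differences share the same 4 control libraries. Both are given for some genes and lists in what follows, and the others carry only the pooled value, which can hide a difference between the drinks.

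Serpinh1 belongs to a list of 24 enzymes and chaperones of collagen maturation, all of which were tested. Of these, 19 were lower and 5 higher with the drinks, 12 lower and 0 higher at an unadjusted p under 0.05, and 1, Serpinh1, passed the adjusted threshold. For this list and all lists below, the shares over all tested genes at that unadjusted level were 8.57% higher and 8.17% lower. All 8 drink libraries lay above all controls in 0.858% of tested genes and below them in 1.2%. The median log2 difference of the 24 members was -0.18 (-0.16 for coffee and -0.19 for GTE), against 0.0078 over all tested genes, and it was -0.20 with the marrow covariate and -0.20 without coffee 1, coffee 4 and GTE 1. P4ha1, the catalytic subunit of collagen prolyl 4-hydroxylase, was at 12.01 to 22.8 FPKM (median 17.7) in the 8 drink libraries and 26.5, 22.6, 28.2 and 21.6 FPKM in control libraries 1 to 4. Loxl1, an oxidase that crosslinks elastin and collagen, was at 10.6 to 14.2 FPKM (median 12.2) with the drinks and 18.8, 17.9, 16.6 and 12.9 FPKM in control. For each of them 7 of 8 drink libraries were below every control, with log2 differences of -0.53 and -0.41 and a limma adjusted p of 0.261 for both. The P4ha1 difference was -0.31 for coffee and -0.76 for GTE, and that of Loxl1 -0.44 and -0.38. The mean log2(FPKM + 1) of the list was 3.72, 3.66, 3.60 and 3.69 in coffee, 3.59, 3.71, 3.71 and 3.58 in GTE and 3.93, 3.90, 3.87 and 3.71 in control, with control 4 among the drink values.

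The products of that machinery, the collagen chains, had a median log2 difference of -0.26 over 20 tested genes (-0.26 for coffee, -0.20 for GTE). There were 18 chains lower and 2 higher, 10 and 0 of them at an unadjusted p under 0.05, and 0 were called. Col11a2, a fibril chain of cartilage and the tectorial membrane, was at 59.7 to 87.2 FPKM (median 73.7) with the drinks and 95.1, 101, 81.1 and 83.04 FPKM in control. Col14a1, a fibril-associated collagen, was at 3.05 to 4.29 FPKM (median 3.72) with the drinks and 5.503, 5.53, 4.203 and 4.28 FPKM in control. In these 2 genes the ranges overlapped only at the lowest controls, 3 and 4. Col9a2, a chain of the collagen that coats cartilage fibrils, was at 20.7 to 37.5 FPKM (median 29.7) with the drinks and 38.8, 40.2, 33.8 and 40.1 FPKM in control, with 6 of 8 drink libraries below every control. Cartilage matrix genes other than collagens were lower in 7 of 8 tested members, from 11 listed (3 at an unadjusted p under 0.05), with a median of -0.33. Ucma, a secreted protein of cartilage cells, was at 111 to 217 FPKM (median 162) with the drinks and 239, 251, 213 and 221 FPKM in control. Cnmd, the antiangiogenic cartilage protein chondromodulin, was at 56.7 to 135 FPKM (median 100.1) with the drinks and 116, 135, 152 and 155 FPKM in control. Matn4, a matrilin, was at 1.66 to 2.75 FPKM (median 2.43) with the drinks and 3.96, 3.65, 3.52 and 2.38 FPKM in control. Most drink libraries were below all controls for Ucma (7 of 8) and Cnmd (6 of 8), but 2 of 8 were for Matn4, whose control 4 was low. The collagen median was -0.35 with the marrow covariate and -0.33 when the marrow-rich libraries were left out, and the cartilage median -0.23 with the marrow covariate and -0.27 when the marrow-rich libraries were left out.

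Genes of the glucocorticoid response, which cortisol-like hormones induce through their nuclear receptor, were lower in 14 of 15 tested members (16 listed) and higher in 1. At an unadjusted p under 0.05 there were 12 lower and 0 higher, and the median log2 difference was -0.54 (-0.46 for coffee and -0.64 for GTE). It was -0.48 with the marrow covariate and -0.47 without coffee 1, coffee 4 and GTE 1, and 0 members passed the adjusted threshold. Zbtb16, a zinc finger repressor, was at 6.37, 3.64, 5.77 and 2.76 FPKM in coffee, 1.79, 2.53, 5.51 and 3.92 FPKM in GTE and 8.65, 8.097, 9.31 and 12.5 FPKM in control. Every drink library was below every control for Zbtb16, with a log2 difference of -1.14 ± 0.24 (SE, limma adjusted p 0.261). Klf9, a Krüppel-like factor, was at 22.2 to 38.2 FPKM (median 29.2) with the drinks and 55.2, 34.6, 41.99 and 53.6 FPKM in control, with control 2 inside the drink range. Cdkn1a, described above, is the member with the smallest p. By library, the list mean was 4.72, 5.08, 4.75 and 4.66 in coffee, 4.59, 4.56, 4.68 and 4.57 in GTE and 5.42, 4.93, 5.12 and 5.34 in control on the log2 scale, and coffee 2 alone exceeded a control. Per1 stands also in the clock list and Lcn2 in the myeloid marrow list.

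Clock genes run in a feedback loop in which BMAL1 (Arntl) and its partners drive Per, Cry and output genes such as Dbp. Of the 16 tested clock genes, 7 were higher and 9 lower (1 and 6 at an unadjusted p under 0.05). Arntl was at 1.47 to 3.25 FPKM (median 1.82) with the drinks and 2.67, 3.96, 3.77 and 3.605 FPKM in control, and 7 of 8 drink libraries were below every control. Npas2, a partner of BMAL1, was at 0.806 to 2.42 FPKM (median 1.44) with the drinks and 1.72, 2.91, 2.27 and 2.602 FPKM in control, an overlap in 2 drink libraries. Dbp, an output factor, was at 17.7, 18.5, 16.99 and 4.81 FPKM in coffee, 11.5, 19.2, 29.3 and 16.6 FPKM in GTE and 11.4, 7.44, 5.65 and 6.72 FPKM in control. For Dbp, 7 drink libraries were above every control and coffee 4 was below every control, a log2 difference of 0.94 (limma adjusted p 0.276), and 18% of its exon bases overlap Sphk2 on the other strand. The list median of -0.14 became 0.073 with the marrow covariate and 0.083 without coffee 1, coffee 4 and GTE 1. The hour at which tissue was taken is not given in the sources used here.

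Heat shock genes of the cytosol and mitochondria, which encode chaperones of protein folding, were lower with the drinks in all 20 tested members, 9 of them at an unadjusted p under 0.05 and 0 past the adjusted threshold. Over all tested genes 48.2% were lower, and 8.17% were lower at that unadjusted level. The median log2 difference of the list was -0.34, with -0.21 for coffee and -0.41 for GTE. Hspa8, the constitutive HSC70 chaperone, was at 409, 481, 518 and 479.6 FPKM in coffee, 303, 319, 425 and 321 FPKM in GTE and 593, 529.6, 648 and 486 FPKM in control. Coffee 3 overlapped control 4, and the log2 difference of Hspa8 was -0.25 for coffee and -0.73 for GTE. Dnaja1, an HSP40 partner of HSC70 whose promoter is printed above, was at 35.3, 49.8, 39.8 and 43.2 FPKM in coffee, 26.5, 29.9, 37.6 and 31.1 FPKM in GTE and 50.2, 43.1, 62.6 and 43.2 FPKM in control. Stip1, which links HSP70 to HSP90, was at 81.5, 98.6, 88.5 and 86.8 FPKM in coffee, 69.5, 69.9, 83.99 and 70.4 FPKM in GTE and 100.3, 88.9, 112 and 88.3 FPKM in control. In both, the 4 GTE libraries were below all controls while 2 coffee libraries lay within the control range, and 7.05% of the exon bases of Dnaja1 overlap Smu1. The list median was -0.21 with the marrow covariate and -0.18 without coffee 1, coffee 4 and GTE 1, and -0.21 without control 3.

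Chaperones of the endoplasmic reticulum, where Serpinh1 also works, gave a median of -0.15 over 20 tested genes (-0.12 for coffee and -0.22 for GTE), and -0.24 with the marrow covariate and -0.20 when the marrow-rich libraries were left out. It was -0.10 without control 3. Of the list, 18 members were lower, 9 at an unadjusted p under 0.05, and 2 higher, with 0 called. Hspa5, the master chaperone BiP, was at 166, 139.8, 193 and 150.2 FPKM in coffee, 129, 131, 137 and 123 FPKM in GTE and 214, 159, 251 and 190.2 FPKM in control. Creld2, a secreted disulfide isomerase-like protein, was at 34.6, 39.04, 46.2 and 35.3 FPKM in coffee, 29.8, 29.6, 32.8 and 28.5 FPKM in GTE and 47.1, 38.7, 57.1 and 42.6 FPKM in control. Manf, a stress-induced secreted factor, was at 13.5 to 22.2 FPKM (median 16.5) with the drinks and 22.4, 18.2, 26.2 and 20.5 FPKM in control. In these 3 genes the GTE libraries were below every control. Inside the control range were coffee 1 and coffee 3 for Hspa5 and Manf, and coffee 2 and coffee 3 for Creld2. The log2 differences were -0.47, -0.42 and -0.37. Control 2 was the lowest control and control 3 the highest in each of the 3. The gene P4hb, a subunit of prolyl 4-hydroxylase and a disulfide isomerase, is counted in this list and in the collagen maturation list.

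**Figure D3:**
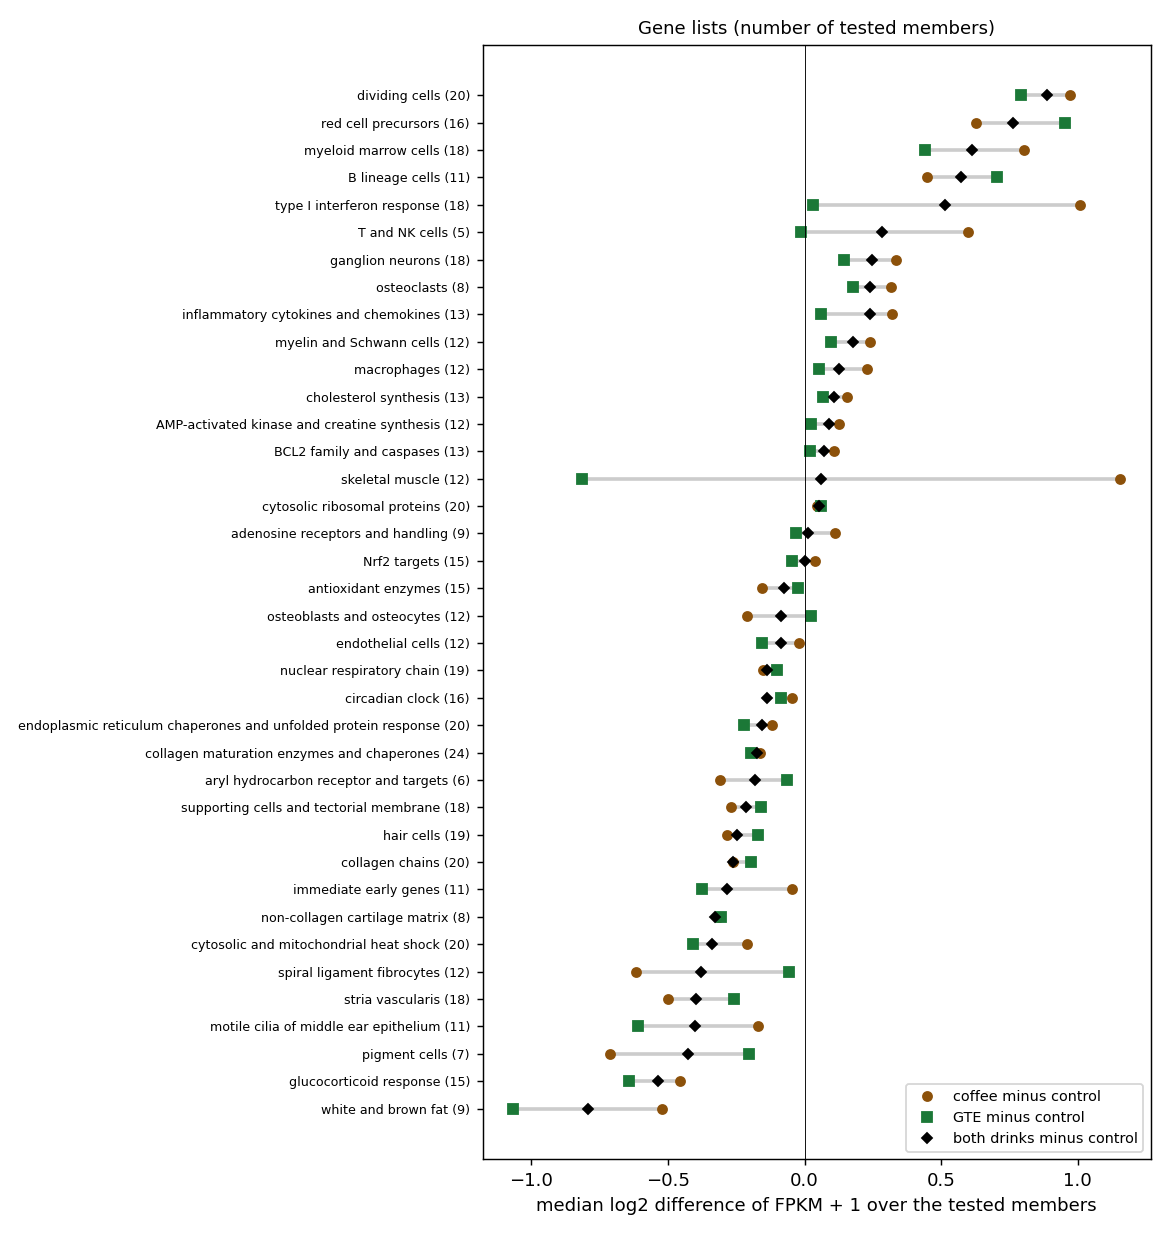
Median log2 difference of FPKM + 1 over the tested members (x axis) of 38 gene lists (y axis, number of tested members in brackets), for coffee minus control (brown circles), GTE minus control (green squares) and both drinks minus control (black diamonds). Dividing cells, red cell precursors and myeloid marrow cells stand at the top, at 0.89, 0.76 and 0.61, and fat and the glucocorticoid response at the bottom, at -0.79 and -0.54.

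The plot of list medians sets coffee and GTE side by side and shows lists of marrow cells at its top and glucocorticoid response, stria and pigment genes toward its bottom. Genes of the stria vascularis were lower in 15 of 18 tested members, 10 at an unadjusted p under 0.05, and higher in 3, 1 at that level, with a median of -0.40 (-0.50 for coffee and -0.26 for GTE). With the marrow covariate the median was -0.10, and without coffee 1, coffee 4 and GTE 1 it was -0.22. Kcne1, the accessory subunit of the strial potassium channel, was at 12.7, 17.4, 23.7 and 12.8 FPKM in coffee, 15.4, 29.2, 29.9 and 29.4 FPKM in GTE and 31.1, 33.5, 36.3 and 31.3 FPKM in control. Kcnq1, the pore of that channel, was at 5.77, 8.196, 10.2 and 5.41 FPKM in coffee, 7.13, 10.95, 11.8 and 12.01 FPKM in GTE and 12.2, 13.4, 14.3 and 12.3 FPKM in control. For both subunits all 8 drink libraries were below all controls, and coffee 1, coffee 4 and GTE 1 were the lowest 3. Esrrb, a nuclear receptor of marginal cells, was at 9.73, 15.2, 20.3 and 10.2 FPKM in coffee, 10.9, 21.2, 23.3 and 20.1 FPKM in GTE and 22.6, 25.4, 27.6 and 29.1 FPKM in control. The log2 differences of Kcne1, Kcnq1 and Esrrb were -0.68, -0.54 and -0.71 (limma adjusted p 0.261 each), against -0.31, -0.24 and -0.27 with the marrow covariate and -0.41, -0.31 and -0.40 without coffee 1, coffee 4 and GTE 1. The part that marrow content has in these differences was not tested.

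Fibrocyte genes of the spiral ligament had a median of -0.38 over 12 tested members, but -0.62 for coffee and -0.058 for GTE, and -0.091 with the marrow covariate and -0.10 when the marrow-rich libraries were left out. There were 10 lower, 5 of them at an unadjusted p under 0.05, and 2 higher. Coch was at 1441, 1205, 2156 and 1079.8 FPKM in coffee, 1442, 2141, 2035 and 2146 FPKM in GTE and 2298, 2313, 2335 and 2317 FPKM in control. The 4 controls were close together and all 8 drink libraries were below them, though coffee 3 and 3 of the GTE libraries were near (exact permutation p 0.00404, unadjusted and the smallest possible, limma adjusted p 0.277). Slc4a11, a membrane transporter of fibrocytes, was at 88.3 to 222 FPKM (median 158) with the drinks and 188, 236, 244 and 209 FPKM in control. Its log2 difference was -0.98 for coffee and -0.16 for GTE. Cp, the ferroxidase ceruloplasmin, was at 41.2 to 71.9 FPKM (median 54.3) with the drinks and 62.4, 65.9, 93.04 and 71.7 FPKM in control, and in either gene 5 of 8 drink libraries were below every control. Melanocyte genes of the stria gave a median of -0.43 over 7 tested members of 9 listed (-0.71 for coffee, -0.20 for GTE, -0.058 with the marrow covariate and -0.17 when the marrow-rich libraries were left out), with 6 lower and 1 higher. Dct, an enzyme of melanin synthesis, was at 70.5 to 191 FPKM (median 119) with the drinks and 172, 193, 232 and 228 FPKM in control. Slc45a2, a melanosome transporter, was at 6.94 to 17.4 FPKM (median 13.3) with the drinks and 16.4, 17.9, 23.3 and 19.3 FPKM in control. Both had 5 drink libraries below every control, the 4 coffee libraries and GTE 1. The member that was higher, Slc24a5, was at 1.41 to 2.67 FPKM (median 2.096) with the drinks and 1.44, 1.48, 1.47 and 1.25 FPKM in control, and 39.5% of its exon bases overlap Myef2.

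Hair cell genes were lower in 15 of 19 tested members, from 22 listed (3 at an unadjusted p under 0.05) and higher in 4 (1 at that level), with a median of -0.25 that was 0.017 with the marrow covariate and -0.10 when the marrow-rich libraries were left out. Leaving out GTE 1 or control 2 gave -0.15. At an unadjusted p under 0.05, 8.17% of all tested genes were lower and 8.57% higher. The outer hair cell genes Ocm and Slc26a5 were below every control in all 8 drink libraries, as were 1.2% of all tested genes. Ocm was at 12.3, 15.1, 35.4 and 22.1 FPKM in coffee, 27.4, 35.9, 34.3 and 31.6 FPKM in GTE and 47.7, 49.8, 48.2 and 44.7 FPKM in control. Slc26a5, which encodes the motor protein prestin, was at 0.834, 1.14, 2.61 and 1.404 FPKM in coffee, 1.82, 1.57, 2.24 and 2.53 FPKM in GTE and 2.87, 3.31, 2.94 and 3.01 FPKM in control. Their log2 differences were -0.89 ± 0.21 and -0.58 ± 0.16 (SE, limma adjusted p 0.261 each), -0.74 and -0.42 with the marrow covariate, and -0.74 and -0.46 without coffee 1, coffee 4 and GTE 1. Gfi1, which hair cells share with blood progenitors, was at 5.93 to 15.3 FPKM (median 10.9) with the drinks and 11.2, 7.49, 6.89 and 4.56 FPKM in control. Supporting cell and tectorial membrane genes had a median of -0.21 over 18 tested members (-0.015 with the marrow covariate and -0.040 when the marrow-rich libraries were left out, -0.13 without GTE 1), with 14 lower, 5 at an unadjusted p under 0.05. Jag1, a Notch ligand of supporting cells, was at 5.16, 6.73, 6.77 and 5.98 FPKM in coffee, 5.02, 6.62, 6.76 and 6.69 FPKM in GTE and 8.45, 7.86, 8.51 and 7.75 FPKM in control. Jag1 was lower in every drink library than in every control, by a log2 difference of -0.35 (-0.20 with the marrow covariate and -0.24 without coffee 1, coffee 4 and GTE 1). Epyc and Ceacam16, a proteoglycan of the otic epithelium and a tectorial membrane protein, were at 54.3 to 138 FPKM (median 104) and 103 to 238 FPKM (median 179.7) with the drinks. In control they were at 119.9, 138, 156 and 124 FPKM for Epyc and 209, 270.4, 189 and 219 FPKM for Ceacam16, so that the groups overlapped, and 40.6% and 23.2% of their exon bases overlap other genes.

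Genes of drug metabolism and of the response to oxidants were followed in 3 lists. The aryl hydrocarbon receptor, which senses planar aromatic compounds, and its targets were lower in all 6 tested members of 9 listed, 1 of them at an unadjusted p under 0.05, with a median of -0.18 (-0.13 with the marrow covariate and -0.10 when the marrow-rich libraries were left out, -0.11 without control 3). That member was Cyp1b1, an oxidase of steroids and aromatic compounds, at 25.1, 28.4, 24.7 and 21.3 FPKM in coffee, 22.9, 29.3, 27.3 and 31.4 FPKM in GTE and 35.3, 33.2, 40.9 and 40.4 FPKM in control. Its groups did not overlap, with a log2 difference of -0.50 ± 0.10 (SE, limma adjusted p 0.261), -0.36 with the marrow covariate. Nqo1, a quinone reductase that this receptor and Nrf2 both induce, was at 9.67 to 16.6 FPKM (median 11.6) with the drinks and 12.9, 11.9, 14.6 and 16.4 FPKM in control, and Aldh3a1, an aldehyde dehydrogenase, at 5.08 to 10.6 FPKM (median 6.13) and 10.1, 6.85, 8.81 and 7.303 FPKM. Drink and control ranges overlapped for both, though the Nqo1 log2 difference was -0.35 for coffee and 0.020 for GTE. The median of the receptor list was -0.31 for coffee and -0.064 for GTE. Nrf2, the master regulator of antioxidant defence, and its targets were higher in 8 and lower in 7 of 15 tested members, 2 and 1 at an unadjusted p under 0.05, and their median of 0.00042 changed sign in 10 of 26 alternatives (-0.056 with the marrow covariate and -0.034 when the marrow-rich libraries were left out). The shares over all tested genes at that level were 8.57% higher and 8.17% lower. Gclm, a subunit of the enzyme that starts glutathione synthesis, was at 10.6 to 15.6 FPKM (median 12.4) with the drinks and 10.6, 9.11, 9.99 and 8.53 FPKM in control. Gsr, glutathione reductase, was at 129.9, 68.5, 78.3 and 105 FPKM in coffee, 143, 70.6, 57.8 and 54.4 FPKM in GTE and 62.9, 42.3, 55.5 and 56.7 FPKM in control, highest in the 3 marrow-rich libraries. Gsta4, which detoxifies lipid aldehydes, was at 58.7 to 163 FPKM (median 107) with the drinks and 143, 155, 188 and 173 FPKM in control. The log2 differences were 0.38, 0.62 and -0.64, and 0.15, -0.00063 and -0.27 with the marrow covariate. For Gsta4 the difference was -0.98 for coffee and -0.30 for GTE.

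Antioxidant enzymes were lower in 10 of 15 tested members, 3 at an unadjusted p under 0.05, and higher in 5, with a median of -0.074 (-0.084 with the marrow covariate and -0.043 when the marrow-rich libraries were left out, -0.028 without control 2). Gpx3, the extracellular glutathione peroxidase, was at 287, 260.3, 402 and 249.5 FPKM in coffee, 257, 355, 319.5 and 361 FPKM in GTE and 428, 485, 462 and 393 FPKM in control, with coffee 3 above the lowest control. Sod3, the extracellular superoxide dismutase, was at 13.5, 19.2, 19.9 and 12.1 FPKM in coffee, 6.38, 8.896, 11.2 and 9.04 FPKM in GTE and 20.8, 21.4, 13.7 and 16.2 FPKM in control. GTE libraries were below every control for Sod3, and coffee libraries were on both sides of the lowest. Sod1, its cytosolic relative, was at 229 to 302 FPKM (median 279) with the drinks and 304, 339, 304 and 314 FPKM in control, a small separation without overlap (log2 difference -0.18, limma adjusted p 0.289).

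Adenosine receptors are the targets of caffeine, and those named here were below 5 FPKM in every library. Adora2a was at 2.41, 2.38, 1.16 and 1.56 FPKM in coffee, 1.56, 1.26, 1.28 and 1.38 FPKM in GTE and 0.948, 2.39, 0.684 and 0.856 FPKM in control, where control 2 was within the coffee range. Adora1 was at 1.41 to 4.62 FPKM (median 2.605) with the drinks and 3.25, 2.796, 1.41 and 2.35 FPKM in control, and 20.1% of its exon bases overlap Mybph. Its log2 difference of 0.070 was -0.0060 without coffee 2 and -0.092 without control 3. Ada, which degrades adenosine, was at 9.995, 5.24, 6.77 and 5.45 FPKM in coffee, 13.6, 6.31, 3.91 and 4.55 FPKM in GTE and 3.91, 3.602, 3.92 and 3.52 FPKM in control. GTE 3 was within the control range and the other 7 drink libraries above it, a log2 difference of 0.66 that was 0.064 with the marrow covariate. Over the list of adenosine receptors and handling, 6 of 9 tested members (10 listed) were higher, 1 at an unadjusted p under 0.05, and 3 lower, among them the transporter Slc29a2 at 2.02 to 3.08 FPKM (median 2.59) with the drinks and 3.09, 2.98, 2.13 and 3.41 FPKM in control. The median of 0.011 changed sign in 6 of 26 alternatives and was 0.033 with the marrow covariate and -0.034 when the marrow-rich libraries were left out. AMP-activated kinase, an energy sensor, and the creatine genes were higher in 9 of 12 tested members, 3 at an unadjusted p under 0.05, and lower in 3. Besides Gatm, these were the kinase subunits Prkab2, at 4.75 to 6.92 FPKM (median 5.48) with the drinks and 4.93, 4.57, 4.16 and 4.29 FPKM in control, and Prkaa1, at 14.9 to 17.3 FPKM (median 16.4) and 13.999, 14.5, 15.5 and 15.2 FPKM. Prkab2 was above every control in 7 of 8 drink libraries (log2 difference 0.27) and Prkaa1 in 6 of 8 (log2 difference 0.13), and the list median was 0.091 (0.12 with the marrow covariate and 0.089 when the marrow-rich libraries were left out, 0.033 without coffee 3).

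Genes of the BCL2 family and caspases, which decide on apoptosis, were higher in 9 of 13 tested members and lower in 4. At an unadjusted p under 0.05 there were 2 higher and 1 lower, beside 8.57% and 8.17% of all tested genes. The list median of 0.070 turned to -0.077 with the marrow covariate and -0.018 when the marrow-rich libraries were left out. Without control 2 it was 0.023. Bcl2l1, which encodes the survival factor BCL-XL, was at 23.6, 30.9, 25.5 and 21.7 FPKM in coffee, 24.4, 29.3, 27.3 and 28.3 FPKM in GTE and 30.98, 31.1, 34.5 and 32.4 FPKM in control. All 8 drink libraries were below the controls, by a log2 difference of -0.29 ± 0.087 (SE, limma adjusted p 0.261), -0.18 with the marrow covariate. The proapoptotic Bid was at 5.93 to 12.3 FPKM (median 7.24) with the drinks and 6.32, 5.11, 5.35 and 4.48 FPKM in control (17.7% of its exon bases overlap Bcl2l13). Bid had a log2 difference of 0.54, and 0.084 with the marrow covariate.

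Dividing cell genes were higher with the drinks in all 20 tested members, each at an unadjusted p under 0.05 and none past the adjusted threshold, with a median of 0.89 (0.97 for coffee, 0.79 for GTE). Their summed FPKM ran over 187 to 404 in coffee, 136 to 573 in GTE and 80.5 to 171 in control. Ccnb1, the mitotic cyclin B1, was at 16.1, 6.804, 8.69 and 13.4 FPKM in coffee, 21.6, 8.33, 7.69 and 5.77 FPKM in GTE and 5.65, 3.41, 6.13 and 3.098 FPKM in control. Coffee 1, coffee 4 and GTE 1 were the highest 3, and GTE 4 alone lay within the control range. Kif11, a spindle motor, was at 8.82 to 34.02 FPKM (median 11.97) with the drinks and 10.03, 5.22, 9.37 and 4.56 FPKM in control, and Nusap1, a spindle protein, at 8.03 to 24.2 FPKM (median 11.2) and 7.97, 4.64, 9.73 and 4.405 FPKM. With the marrow covariate the list median was 0.084, and without coffee 1, coffee 4 and GTE 1 it was 0.48. The panels of list means show the same 3 libraries at the top for dividing and myeloid cells and at the bottom for the stria.

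Myeloid marrow genes were higher in all 18 tested members, 8 at an unadjusted p under 0.05, with a median of 0.61 (0.80 for coffee, 0.44 for GTE) that was -0.083 with the marrow covariate and 0.30 when the marrow-rich libraries were left out, where the covariate is the mean of these same genes. Their summed FPKM was 18868 to 30681 in coffee, 13361 to 35439 in GTE and 11310.3 to 18139.6 in control. Mpo, the myeloperoxidase of neutrophil granules, was at 259.96, 162, 118 and 204 FPKM in coffee, 265, 100.4, 95.1 and 54.1 FPKM in GTE and 89.8, 54.8, 62.4 and 24.5 FPKM in control (14.9% of its exon bases overlap Gm11505). The granule proteases Ctsg and Prtn3 were at 131 to 398 FPKM (median 243) and 119.7 to 492 FPKM (median 271) with the drinks. In control, Ctsg was at 148, 90.9, 138 and 47.1 FPKM and Prtn3, of whose exon bases 9.18% overlap Plppr3, at 167, 109, 133 and 57.8 FPKM. Ms4a3, a marker of granulocyte and monocyte progenitors, was at 36.5 to 107 FPKM (median 63.5) with the drinks and 39.7, 24.6, 45.9 and 16.01 FPKM in control. Coffee libraries were above the controls in all 4 of these genes, whereas GTE 3 or GTE 4 lay within the control range. Red cell precursor genes were higher in all 16 tested members, 3 at an unadjusted p under 0.05, with a median of 0.76 that was -0.10 with the marrow covariate and 0.23 when the marrow-rich libraries were left out. Tfrc, the transferrin receptor, was at 34.1 to 79.4 FPKM (median 49.3) with the drinks and 34.3, 32.4, 46.8 and 24.6 FPKM in control. The membrane skeleton genes Ank1 and Sptb were at 5.64 to 10.4 FPKM (median 8.37) and 7.99 to 16.3 FPKM (median 10.5) with the drinks, against 6.35, 4.87, 4.48 and 5.82 FPKM and 8.89, 7.83, 7.69 and 7.11 FPKM in control, and 6.37% of the exon bases of Ank1 overlap Gm15816. The B lineage list was higher in 10 of 11 tested members (16 listed), 4 at an unadjusted p under 0.05 (median 0.57, 0.21 with the marrow covariate and 0.28 when the marrow-rich libraries were left out). Cd79b, part of the B cell receptor, was at 2.78 to 12.5 FPKM (median 5.41) with the drinks and 3.19, 2.55, 2.28 and 2.43 FPKM in control. Ighm, the constant region of IgM, was at 90.3 to 418 FPKM (median 176) with the drinks and 205, 59.3, 64.7 and 101 FPKM in control, and Mzb1, a chaperone of antibody assembly, at 3.99 to 10.1 FPKM (median 6.39) and 5.59, 3.88, 3.38 and 3.32 FPKM. All 3 had drink libraries within the control range.

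Of the 5 tested genes of T and NK cells, from 10 listed, all were higher and 1, Nkg7, was at an unadjusted p under 0.05, with a median of 0.28 (-0.039 with the marrow covariate and 0.080 when the marrow-rich libraries were left out, 0.18 without coffee 1). Nkg7, a granule protein of cytotoxic cells, was at 63.3, 35.6, 31.3 and 50.6 FPKM in coffee, 72.1, 26.6, 24.1 and 16.8 FPKM in GTE and 25.6, 11.8, 15.8 and 11.5 FPKM in control. The T cell receptor genes Trbc1 and Trbc2 were at 1.103 to 5.0999 FPKM (median 2.36) and 1.48 to 8.53 FPKM (median 2.77) with the drinks. Against these stood 2.16, 1.37, 1.24 and 1.72 FPKM for Trbc1 and 2.28, 1.13, 2.97 and 2.298 FPKM for Trbc2 in control, and both genes overlapped between the groups. Macrophage genes were split, with 9 of 12 tested members higher and 3 lower, of which 2 were at an unadjusted p under 0.05, and a median of 0.12 (-0.051 with the marrow covariate and -0.010 when the marrow-rich libraries were left out, 0.063 without coffee 4). The lower genes at that level were the scavenger receptor Cd163, at 1.81 to 2.94 FPKM (median 2.34) with the drinks and 3.41, 2.87, 3.05 and 3.298 FPKM in control, and the hyaluronan receptor Lyve1, at 1.896 to 3.47 FPKM (median 2.86) and 3.56, 3.07, 5.21 and 4.49 FPKM. Cd163 was below every control in 7 of 8 drink libraries, a log2 difference of -0.33 (-0.44 with the marrow covariate), and Lyve1 in 5 of 8. The lysosomal Cd68 was at 23.1 to 66.5 FPKM (median 33.998) with the drinks and 35.8, 26.05, 23.3 and 24.7 FPKM in control.

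**Figure D4:**
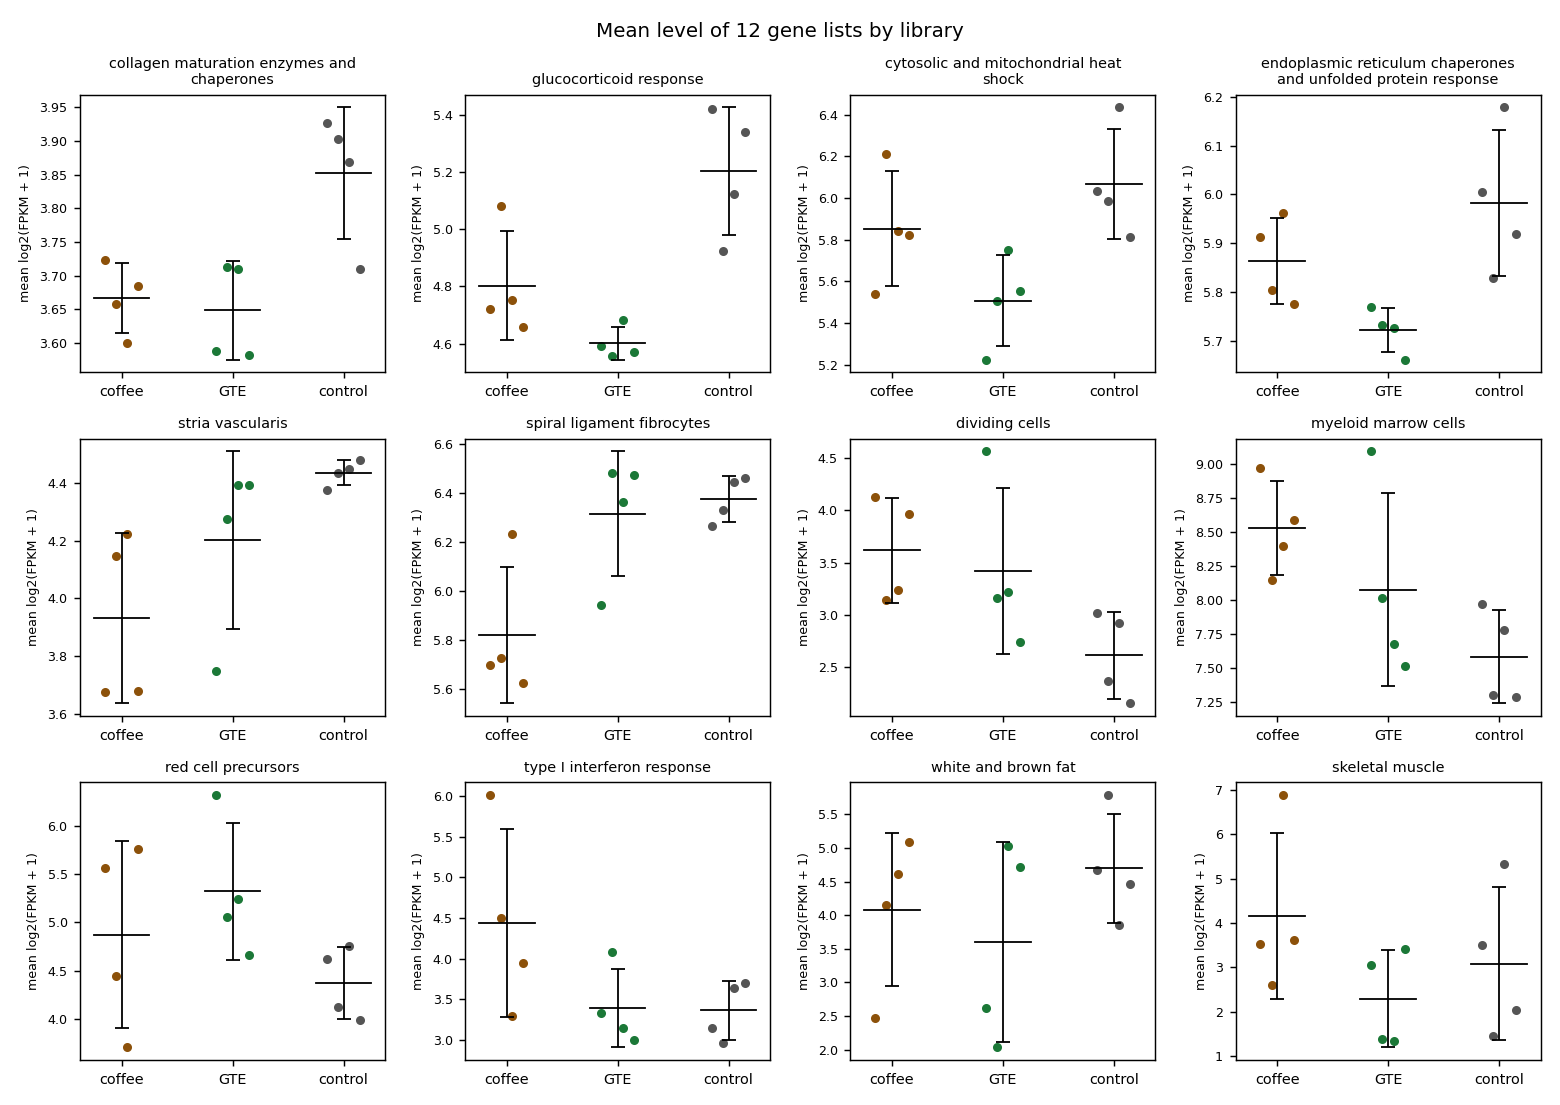
Mean log2(FPKM + 1) of the tested members (y axes, not from 0) of 12 gene lists by library, in coffee, GTE and control (x axes); points are libraries, lines the group mean and bars the SD (n = 4). In the glucocorticoid panel 7 of 8 drink libraries lie below all controls, and coffee 1, coffee 4 and GTE 1 are highest for dividing and myeloid marrow cells.

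Some list medians differed between the drinks and shifted when single libraries were left out. Type I interferon response genes were higher in all 18 tested members, with 0 at an unadjusted p under 0.05 and a median of 0.51 that was 1.01 for coffee and 0.030 for GTE. It was 0.23 with the marrow covariate and 0.31 when the marrow-rich libraries were left out, and 0.26 without coffee 1 alone. Oas3, an interferon-induced sensor of double-stranded RNA, was at 41.2, 9.02, 1.93 and 10.8 FPKM in coffee, 6.58, 2.92, 2.65 and 0.891 FPKM in GTE and 2.38, 1.56, 2.64 and 1.82 FPKM in control. Oas1a, a relative of Oas3, was at 73.7, 25.9, 10.6 and 22.9 FPKM in coffee, 12.3, 15.3, 8.12 and 7.24 FPKM in GTE and 9.43, 7.68, 11.1 and 12.5 FPKM in control. Coffee 1 was the highest library for both genes. Fat genes were lower in all 9 tested members of 10 listed, 0 at an unadjusted p under 0.05. Their median was -0.79 (-0.52 for coffee and -1.07 for GTE). It was 0.15 with the marrow covariate, -0.45 when the marrow-rich libraries were left out and -0.50 without control 2. Ucp1, the uncoupling protein of brown fat, was at 2.02, 74.4, 79.8 and 124 FPKM in coffee, 2.49, 0.0745, 106 and 123 FPKM in GTE and 128, 423, 47.4 and 111 FPKM in control. Cfd and Fabp4, a complement factor and a fatty acid carrier of adipocytes, were at 11.7 to 96.6 FPKM (median 31.8) and 4.44 to 68.8 FPKM (median 44.9) with the drinks, against 52.9, 89.6, 44.4 and 36.5 FPKM and 49.6, 138, 26.003 and 60.2 FPKM in control. Skeletal muscle genes had a median of 0.060 over 12 tested members of 14 listed that was 1.16 for coffee and -0.81 for GTE. That median was -0.63 with the marrow covariate and 0.26 when the marrow-rich libraries were left out, and it ran from -0.38 without control 2 to 1.07 without control 3, below 0 also without GTE 1, GTE 4, coffee 3 or control 4. Atp2a1, the calcium pump of fast muscle, was at 7.73, 2.08, 112 and 5.15 FPKM in coffee, 3.195, 0.409, 0.5504 and 2.997 FPKM in GTE and 3.86, 0.238, 18.1 and 0.853 FPKM in control, led by coffee 3 and control 3 (21.9% of its exon bases overlap Rabep2). Myh1, a fast myosin, was at 0.0274 to 25.4 FPKM (median 1.85) with the drinks and 0.385, 0.0383, 2.33 and 0.575 FPKM in control, and Mybpc1, a slow muscle protein, at 6.46 to 24.3 FPKM (median 7.34) and 12.9, 13.2, 9.26 and 9.47 FPKM. The noncoding genes Myhas and Gm48752 overlap 8.11% and 5.57% of the exon bases of Myh1 and Mybpc1. Drink and control values overlapped for each of the fat and muscle genes named here. Fat and muscle lie next to the dissected organ, and the part that such tissue has in these values was not tested.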

How the data were processed

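RNA was measured in 12 cochlear libraries, made from Trizol RNA with a stranded mRNA kit per the labels' protocols. The authors deposited FPKM, 1 value per Ensembl gene and library. Per the submitters' processing notes, Trimmomatic, HISAT2, Cufflinks and HTSeq were used on build mm10; their versions and roles, the annotation and the strand setting were not given in the sources used here. Values of overlapping genes are therefore uncertain, and overlap shares of 5% or more of the exon bases are given beside the genes concerned.

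Of 34538 gene identifiers, 34459 had a symbol in GENCODE M21 (99.77%) and 79 had none. With exon lengths from the same annotation, 90.8% to 91.3% of the values above 0 came out as whole fragments within 0.01, which gave the depths and floors; these cover counting error only. No 2 files held identical values.

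Groups and replicate numbers came from the titles. limma 3.58.1 in R 4.3.3 was fitted to log2(FPKM + 1) with 3 group means over all 12 libraries, a mean-variance trend, the contrast of the average of coffee and GTE minus control, and Benjamini-Hochberg adjustment over 15854 genes (threshold 0.05). With the pseudocount of 1, fold changes of low genes are understated. Single genes were also tested by exact two-sided permutation over 495 arrangements. The code was tested on simulated data. Lists carry no test.

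Per direction, the rule for named genes took up to 12 genes past the threshold or, with fewer than 5, the 8 with the smallest p, with a mean of at least 2 FPKM on the higher side and no clone or predicted name; it added the 3 members with the smallest p of each described list and 11 set genes, and 3 more genes were added after their values were seen. A few genes chosen this way are not reported here. The 38 lists held 564 genes, of which 531 were tested; Dnai1 was not matched. The comparison, members and lists were chosen with earlier results of these data known. Alternatives changed the pseudocount, filter, scaling, variance model, library weights, replicate block and marrow covariate, or left libraries out. Promoters came from RefSeq.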

Additional observations from a re-analysis of the deposited data

Results flagged for a closer look

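Single libraries that stood apart from the other 3 of their group were looked for in the named genes and the list means, in 411 groups of 4 libraries. The measure was the gap to the nearest library divided by the range of the group, set against Dixon's 95% critical value, and 22 groups passed it. Chance alone passes about 1 group in 20, which is close to the share that passed here. List means and some of their own members were both checked, so the groups are not independent.

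Among genes, control 4 stood apart for Ola1 at 12.56 FPKM (the others 11.74 to 11.78) and control 2 for Ehd2 at 13.51 FPKM (11.66 to 11.86). GTE 3 was apart for the chaperones Hspa8 at 424.9 FPKM (303.3 to 320.8) and Stip1 at 83.99 FPKM (69.51 to 70.43). GTE 1 was apart for the cochlear genes Kcne1 at 15.4 FPKM (29.16 to 29.88), Coch at 1442 FPKM (2035 to 2146), Slc45a2 at 11.81 FPKM (16.77 to 17.44) and Jag1 at 5.021 FPKM (6.62 to 6.755). Coffee 1 was apart for Ctsg at 363.7 FPKM (237.3 to 251.4), Ms4a3 at 90.85 FPKM (62.43 to 64.82), Trbc1 at 5.1 FPKM (2.325 to 2.462) and Ucp1 at 2.017 FPKM (74.45 to 124.2). Coffee 4 was apart for Dbp at 4.808 FPKM (16.99 to 18.53), and coffee 3 for Slc24a5 at 1.407 FPKM (2.118 to 2.217).

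Among list means on the log2(FPKM + 1) scale, coffee 3 stood apart for fibrocytes at 6.233 (5.623 to 5.726), adenosine handling at 2.285 (2.476 to 2.486) and AMP-activated kinase and creatine genes at 4.284 (3.661 to 3.732). GTE 1 did so for cartilage matrix at 3.514 (3.984 to 4.041) and immediate early genes at 3.626 (2.867 to 2.992). Control 1 was apart for clock genes at 3.488 (3.272 to 3.289), immediate early genes at 4.274 (3.173 to 3.314) and B lineage cells at 2.8 (2.301 to 2.32). No named gene differed between GTE and coffee past the limma adjusted threshold, with 0.718 as the smallest adjusted p.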

How the results depend on the processing

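With these libraries the exact test cannot go below a p of 0.00404, and depth limits genes near 0.0604 to 0.0731 FPKM, the worth of 3 fragments on a gene of 2000 bases. Across 26 alternatives the sign of the Serpinh1 difference held and its call held in 21. Weaker values were -0.77 with the marrow covariate (adjusted p 0.0652) and -0.76 without coffee 1, coffee 4 and GTE 1 (0.206). Leaving out 1 library at a time gave -0.84 to -0.77, 0 genes called higher, 0 to 2 called lower (2 without GTE 1, Serpinh1 and Tspan11; 0 without control 1, control 2 or control 3), 0 to 1 different between GTE and coffee, and 705 to 1826 higher and 881 to 1790 lower at an unadjusted p under 0.05. Genes called lower numbered 2 without a filter (Serpinh1 and Gm22297), 39 with sample weights, 0 with the marrow covariate and 0 after leaving out the 3 libraries. Sample weights gave 11 called higher and 365 different between GTE and coffee. At an unadjusted p under 0.05, 726 genes were higher with a mean of at least 5 FPKM and 739 without the 3 libraries, and 515 (covariate, where 68.7% of 1647 were higher) and 703 (3 libraries left out) were lower. The cause was not tested, except that the filter leaves 9264 genes. The marrow covariate reversed Gsr (-0.00063), Slc29a2 (0.033), Trbc2 (-0.14), Trbc1 (-0.069), Cd68 (-0.043), Fabp4 (0.15) and Atp2a1 (-0.20). Leaving out 1 library at a time, Adora1 ran from -0.092 (without control 3) to 0.18 and was -0.0060 without coffee 2, and Atp2a1 ran from -0.057 (without coffee 3) to 1.26 and was -0.053 without control 2. With the replicate number as a block, Serpinh1 alone was called (adjusted p 0.0263) and 3493 genes were at an unadjusted p under 0.05. To look at the replicate numbers, each gene's group mean was subtracted from its log2 values. The remaining deviations of same-numbered libraries of different groups correlated above 0.1 in 5 of 12 pairs (-0.383 to 0.55). By these deviations, 4 of 12 libraries correlated best with a library of their own number. These values do not decide whether the numbers pair the libraries.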

Other observations

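Outside the rule for named genes, 3 further genes of imprinting, mineralization and elastic fibres were picked after their values were seen. H19, an imprinted noncoding RNA, was at 16.9, 8.499, 6.74 and 7.95 FPKM in coffee, 5.28, 9.67, 7.85 and 12.98 FPKM in GTE and 40.4, 21.2, 25.4 and 18.3 FPKM in control. Its 8 drink libraries were all below its controls, with a log2 difference of -1.39 ± 0.28 (SE, limma adjusted p 0.261), -1.39 with the marrow covariate and -1.43 without coffee 1, coffee 4 and GTE 1. Mgp, a matrix protein that inhibits calcification, was at 355, 306, 294 and 306 FPKM in coffee, 242, 412, 298 and 375 FPKM in GTE and 549.5, 411, 704 and 547 FPKM in control. GTE 2 alone was above the lowest control. Eln, elastin, was at 2.32, 2.64, 3.58 and 3.56 FPKM in coffee, 1.93, 2.17, 2.14 and 1.94 FPKM in GTE and 3.496, 3.59, 8.37 and 6.72 FPKM in control, with control 3 and control 4 far above the other pair. Mgp and Eln had log2 differences of -0.76 and -0.84, and -0.69 and -0.78 with the marrow covariate.

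Lists not described above gave the following counts and medians of the log2 difference. Their counts at an unadjusted p under 0.05 stand beside 8.57% of all tested genes higher and 8.17% lower. Ganglion neuron genes had 15 of 18 tested members higher and 3 lower, 0 and 0 at an unadjusted p under 0.05, and a median of 0.25 (0.64 with the marrow covariate and 0.40 when the marrow-rich libraries were left out, 0.077 without control 3). Myelin genes had 9 of 12 tested members higher and 3 lower, 2 and 0 at an unadjusted p under 0.05, and a median of 0.18 (0.65 with the marrow covariate and 0.44 when the marrow-rich libraries were left out, -0.012 without control 3). Osteoblast and osteocyte genes had 5 of 12 tested members higher and 7 lower, 0 and 1 at an unadjusted p under 0.05, and a median of -0.086 (-0.48 with the marrow covariate and -0.37 when the marrow-rich libraries were left out, -0.24 to 0.044 with 1 library left out at a time, above 0 without GTE 4, coffee 2, control 1 or control 2). Osteoclast genes had 8 of 8 tested members higher and 0 lower, 0 and 0 at an unadjusted p under 0.05, and a median of 0.24 (-0.079 with the marrow covariate and 0.090 when the marrow-rich libraries were left out, 0.095 without control 4). Immediate early genes had 2 of 11 tested members higher and 9 lower, 0 and 1 at an unadjusted p under 0.05, and a median of -0.28 (-0.58 with the marrow covariate and -0.37 when the marrow-rich libraries were left out, 0.029 without control 1). Inflammatory cytokines and chemokines had 9 of 13 tested members higher and 4 lower, 1 and 0 at an unadjusted p under 0.05, and a median of 0.24 (-0.0067 with the marrow covariate and 0.072 when the marrow-rich libraries were left out, 0.051 without control 2). Endothelial genes had 2 of 12 tested members higher and 10 lower, 0 and 2 at an unadjusted p under 0.05, and a median of -0.086 (-0.13 with the marrow covariate and -0.094 when the marrow-rich libraries were left out, -0.048 without control 2). Motile cilia genes had 1 of 11 tested members higher and 10 lower, 0 and 1 at an unadjusted p under 0.05, and a median of -0.40 (-0.16 with the marrow covariate and -0.17 when the marrow-rich libraries were left out, -0.16 without control 3). Control 1 held the highest immediate early value of the 12 libraries, 4.27 on the mean log2 scale. Nuclear respiratory chain genes had 0 of 19 tested members higher and 19 lower, 0 and 1 at an unadjusted p under 0.05, and a median of -0.14 (0.048 with the marrow covariate and -0.037 when the marrow-rich libraries were left out, -0.063 without control 2). Cytosolic ribosomal protein genes had 17 of 20 tested members higher and 3 lower, 0 and 0 at an unadjusted p under 0.05, and a median of 0.054 (-0.12 with the marrow covariate and -0.0090 when the marrow-rich libraries were left out, 0.022 without GTE 1). Cholesterol synthesis genes had 12 of 13 tested members higher and 1 lower, 1 and 0 at an unadjusted p under 0.05, and a median of 0.11 (0.29 with the marrow covariate and 0.15 when the marrow-rich libraries were left out, -0.0017 without control 3). None of these lists held a called gene.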
